A study of Homo sapiens with 8 samples.

Results

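The 10 genes described here are established transcriptional targets of the tumor suppressor p53: CDKN1A, BTG2, MDM2, ZMAT3, FAS, TP53I3, SESN1, SESN2, FDXR and GDF15. They were taken by gene symbol from the deposited RNA-seq tables of 2 human esophageal squamous cell carcinoma lines, where they are 10 of 26008 genes for KYSE30 and 10 of 25561 genes for KYSE510. Cells of each line carried either a short hairpin RNA against the LIM-homeodomain factor LHX2 (shLHX2, with the genotype given as LHX2 knockdown) or a control hairpin (shNC, with the genotype given as WT). Hairpins were delivered by a lentiviral pSIH-H1 vector as stable knockdowns, with drug selection, and both groups were labelled with the same shRNA treatment. Each line had 2 shLHX2 and 2 shNC libraries, so that 8 were sequenced. The sources used here give neither the hairpin of each shLHX2 library nor whether libraries came from separate cultures, so that p-values measure only the spread between these samples, which may be technical.

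p53 is a transcription factor that is kept scarce by MDM2, a ubiquitin ligase encoded by a gene that p53 itself turns on. Upon DNA damage and other stresses p53 accumulates and induces genes that stop the cell cycle, start apoptosis, repair DNA or adjust metabolism. Its relative p63, a master factor of squamous epithelium, binds similar DNA elements. The name "p53 target" is used below as knowledge from other systems.

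The p53 response element is a pair of adjoining 10-base repeats, and the sites closest to it near the members' start sites are printed because they show how much the promoters of the group differ. RefSeq promoters on GRCh38.p14, each covering 250 bases before to 50 bases after an annotated start, were matched for all 10 members, with 19 promoters among them. The consensus, which reads alike on both strands, was searched with both repeats adjoining, with the invariant C and G of each repeat kept and with at most 3 of its 20 bases off. A match was present for 5 members, against 373 of 27305 genes (1.37%) and 1.12% of all 35116 promoters. Capitals mark the match, and each site is written 5′ to 3′ on the strand of its gene.
MDM2: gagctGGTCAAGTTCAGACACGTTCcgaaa
FAS: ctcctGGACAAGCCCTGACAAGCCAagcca
SESN1: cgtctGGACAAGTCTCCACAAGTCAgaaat
FDXR: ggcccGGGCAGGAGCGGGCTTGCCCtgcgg
GDF15: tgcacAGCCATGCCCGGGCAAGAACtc
The MDM2 stretch lies on the plus strand at chr12:68808918-68808947, in an intron by GENCODE release 29, and its match has 2 mismatches. That of FAS, with 2 mismatches, lies on the plus strand at chr10:88991304-88991333, and its matching bases are exonic and noncoding. The SESN1 stretch is intronic, on the minus strand at chr6:109009013-109009042, upstream of an internal start, with 3 mismatches. That of FDXR lies on the minus strand at chr17:74872991-74873020, where the match is exonic and noncoding, with 3 mismatches, all in its first repeat. The GDF15 stretch lies on the plus strand at chr19:18386181-18386207, its match starts at base 29 after the start, 16 of its 20 bases are coding, and it has 3 mismatches. No match at this setting was found in these windows for CDKN1A, BTG2, ZMAT3, TP53I3 or SESN2. A match is a description of letters, not of p53 binding, and sites farther from the start were not searched. The letters TAATTA, a core that LIM-homeodomain proteins are known to bind, were found on either strand, since they read alike on both, in 1 of the 19 member promoters, that of an internal ZMAT3 start, against 4.84% of all promoters.

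LHX2, the targeted gene, had 29.7 and 50.2 normalized counts in the KYSE30 shLHX2 libraries, against 99.2 and 118 in the shNC libraries. The groups did not overlap, and LHX2 fell by 1.45 on the log2 scale (standard error 0.34, adjusted p = 0.00012 by the authors' deposited Wald test). The KYSE510 libraries had 10.8 and 1.02 normalized counts of LHX2 with shLHX2 and 14.7 and 8.87 with shNC, which overlap. Its mean of 8.85 lies below the level at which the table gives an adjusted p, and its log2 fold change was -0.97 with a 95% interval of -3.25 to 1.32. A decrease of the LHX2 transcript in KYSE510 was thus not detectable at this depth. The authors also examined the knockdown in both lines by qRT-PCR and Western blotting, measures that are separate from these counts.

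All values per library below are reads worked back from the deposited means and fold changes, divided by the authors' size factors (0.946 to 1.08 in KYSE30 and 0.902 to 1.20 in KYSE510), with the deeper library of a group given first. The normalized counts of a line add up to about 1.89e+07 per library in KYSE30 and 1.92e+07 in KYSE510. The 2 libraries of each group differed by more than counting noise, with a mean chi-square per gene of 1.97 to 2.50 where 1 is the value for counting noise alone, so that no pair looked like a library deposited more than 1 time. The epithelial genes TP63, CDH1, EPCAM and DSP were abundant in both lines, KRT5 averaged 12.8 normalized counts in KYSE30 and 30946 in KYSE510. Of 8 squamous epithelial markers, 4 fell and 4 did not pass in KYSE30 (median log2 fold change -0.13), and 5 fell and 3 did not pass in KYSE510 (median -0.31). Among all genes with an adjusted p, 15.7% fell in KYSE30 and 10.8% in KYSE510. Of 14 leukocyte, endothelial and fibroblast markers, 3 fell in KYSE30 (CD68, CDH5 and COL1A1) and 1 in KYSE510 (CD68), and the summed level of the 6 with reads worked back was 393 and 388 normalized counts in KYSE30 shLHX2, against 718 and 705 in shNC, and 1296 and 1264 in KYSE510 shLHX2, against 1605 and 1485 in shNC. Of the 14, PTPRC, PECAM1 and COL1A2 averaged at most 6.01 normalized counts in either line, but others were higher. The highest mean among the leukocyte, endothelial and fibroblast markers was 99.1, 157 and 268 in KYSE30, and 379, 239 and 739 in KYSE510. The part of all these markers in the members' values was not tested, and in bulk RNA fewer cells of a type and less RNA per cell cannot be told apart.

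In KYSE30, 6 of the 10 members passed an adjusted p of 0.05 in the authors' deposited Wald test. GDF15, SESN2, TP53I3, CDKN1A and FDXR fell with shLHX2 and BTG2 rose, while FAS, SESN1, ZMAT3 and MDM2 did not pass. Over all 15923 genes tested in this line 29.6% passed, 15.7% lower and 13.9% higher. The median log2 fold change of the 10 members was -0.22, beside 0.00 for all genes tested. With a further limit of 1.5-fold, 3 members were lower, GDF15, SESN2 and TP53I3, and 4.72% of all genes tested were lower by the adjusted p and this limit together.

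In KYSE510, 2 of the 10 members passed, GDF15 and SESN2, both lower, while 18.7% of 12676 genes tested passed, 10.8% lower and 7.89% higher. The share of members is thus near the background of this line. No member rose by this test: 3 members had an unadjusted p under 0.05, none of them higher, and limma on the same reads called 4 members, with BTG2 higher. The median log2 fold change of the members was -0.10, beside -0.00 for all genes. No member reached 1.5-fold, and 2.24% of genes tested were lower by this limit and the adjusted p together.

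GDF15 and SESN2 were the members lower in both lines, 2 of 10, and 5.79% of the 12311 genes with an adjusted p in both tables were lower in both. Every member passed the filter on low values in both lines. The groups did not overlap for 8 members in KYSE30 and for 6 in KYSE510. Over all genes with reads worked back, 67.4% in KYSE30 and 67.2% in KYSE510 had groups that did not overlap, so that with 2 libraries a side this count is close to the background.

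**Figure D1:**
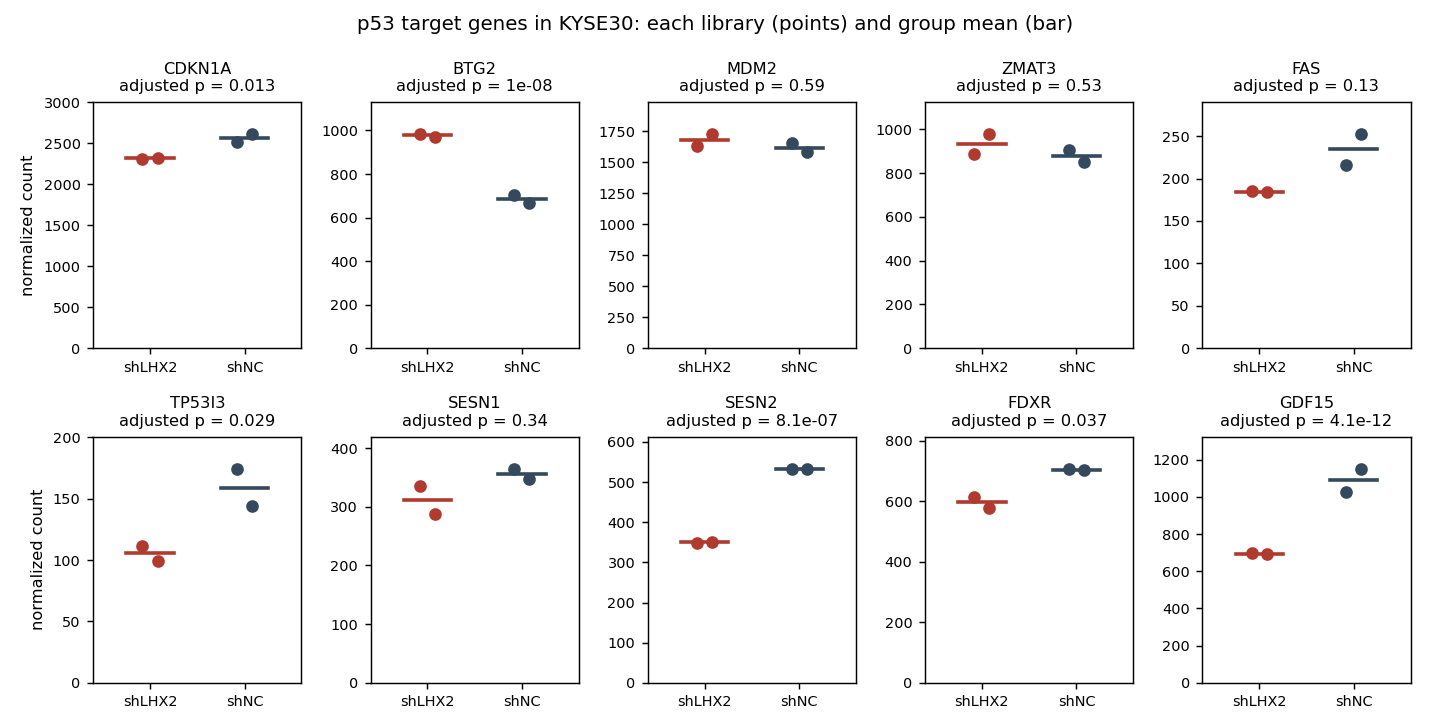
Normalized counts (vertical axes, from 0) of the 10 p53 target genes in KYSE30, with each library as a point, the group mean as a bar, shLHX2 on the left and shNC on the right of each panel. GDF15 sits at 697 and 692 with shLHX2, below 1028 and 1151 with shNC, and BTG2 sits at 984 and 971, above 702 and 665.

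Among the genes that act on cell proliferation, CDKN1A and BTG2 moved in opposite directions in KYSE30. CDKN1A (ENSG00000124762, chr6:36676460-36687339) encodes p21, the inhibitor of cyclin-dependent kinases that carries much of the p53 arrest. It had 2312 and 2317 normalized counts in the KYSE30 shLHX2 libraries, against 2517 and 2614 in the shNC libraries. Both shLHX2 libraries were below both shNC libraries, by a small margin: CDKN1A fell to 90.2% of shNC (log2 fold change -0.15, standard error 0.05, adjusted p = 0.013). In KYSE510, CDKN1A had 1468 and 1445 in shLHX2 and 1407 and 1414 in shNC, close to each other but without overlap. The log2 fold change there was 0.05, with a 95% interval of -0.12 to 0.21 and an adjusted p of 0.79.

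BTG2 (ENSG00000159388, chr1:203305491-203309602) encodes an antiproliferative protein that brings a deadenylase complex to mRNAs. In KYSE30 it had 984 and 971 normalized counts in shLHX2, against 702 and 665 in shNC. It was the only member that rose in this line, to 143% of shNC, with a log2 fold change of 0.52, a standard error of 0.08 and an adjusted p of 1.0e-08. BTG2 in KYSE510 had 298 and 283 in shLHX2, against 234 and 233 in shNC. Both shLHX2 libraries were again the higher ones, but the log2 fold change of 0.32 did not pass (95% interval -0.06 to 0.70, adjusted p = 0.29). With limma on the reads worked back, the KYSE510 change of BTG2 had an adjusted p of 0.026.

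MDM2 and ZMAT3, which act back on p53 or on RNA, did not pass in either line. MDM2 (ENSG00000135679, chr12:68808176-68850686) had 1633 and 1729 normalized counts in the KYSE30 shLHX2 libraries, against 1653 and 1586 in the shNC libraries. The groups overlap, and the log2 fold change was 0.05 (95% interval -0.07 to 0.18, adjusted p = 0.59). In KYSE510, MDM2 had 2052 and 1910 in shLHX2 and 2241 and 2181 in shNC. These do not overlap, and the log2 fold change of -0.16 had an adjusted p of 0.13 in the authors' deposited test, while limma on the reads gave 0.0088. MDM2 shares 5.91% of its exon bases with an antisense gene and 3.30% with a pseudogene on its own strand, and 1.00% with CPM. On the opposite strand, FAS shares 8.93% with ACTA2, SESN1 7.09% with an antisense gene, CDKN1A 4.79% with a noncoding gene and TP53I3 3.46% with FAM228B. The way reads in these stretches were counted was not given in the sources used here.

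ZMAT3 (ENSG00000172667, chr3:179017223-179072279) encodes a zinc-finger RNA-binding protein. It had 889 and 979 normalized counts in KYSE30 shLHX2, against 908 and 852 in shNC, with a log2 fold change of 0.08 and an adjusted p of 0.53. ZMAT3 in KYSE510 had 198 and 228 in shLHX2 and 232 and 281 in shNC. The KYSE510 groups are separated by 4.30 counts only, and the log2 fold change of -0.27 had a 95% interval of -0.69 to 0.15 (adjusted p = 0.45).

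The apoptosis genes FAS and TP53I3 were the least abundant members per length in KYSE30. FAS (ENSG00000026103, chr10:88990582-89015785) encodes the death receptor for FAS ligand. It had 186 and 184 normalized counts in KYSE30 shLHX2, against 216 and 253 in shNC. Both shLHX2 libraries were lower, the log2 fold change was -0.34 with a 95% interval of -0.68 to -0.01, and the adjusted p was 0.13. By limma on the reads worked back it was 0.043, so that FAS lies on either side of the threshold by the method. In KYSE510, FAS had 256 and 222 in shLHX2 and 216 and 287 in shNC, which overlap, with a log2 fold change of -0.07 (adjusted p = 0.89).

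TP53I3 (ENSG00000115129, chr2:24077433-24085861), also called PIG3, encodes a quinone oxidoreductase tied to p53-driven oxidative stress. In KYSE30 it had 111 and 99.5 normalized counts in shLHX2, against 174 and 144 in shNC. It fell to 66.3% of shNC (log2 fold change -0.59, standard error 0.22, adjusted p = 0.029), with a wide 95% interval of -1.03 to -0.16 at this low level. Without the deeper shNC library, limma gave an adjusted p of 0.092. In KYSE510, TP53I3 had 97.5 and 113 in shLHX2 and 104 and 126 in shNC, with overlap and a log2 fold change of -0.13 (95% interval -0.72 to 0.47, adjusted p = 0.85).

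**Figure D2:**
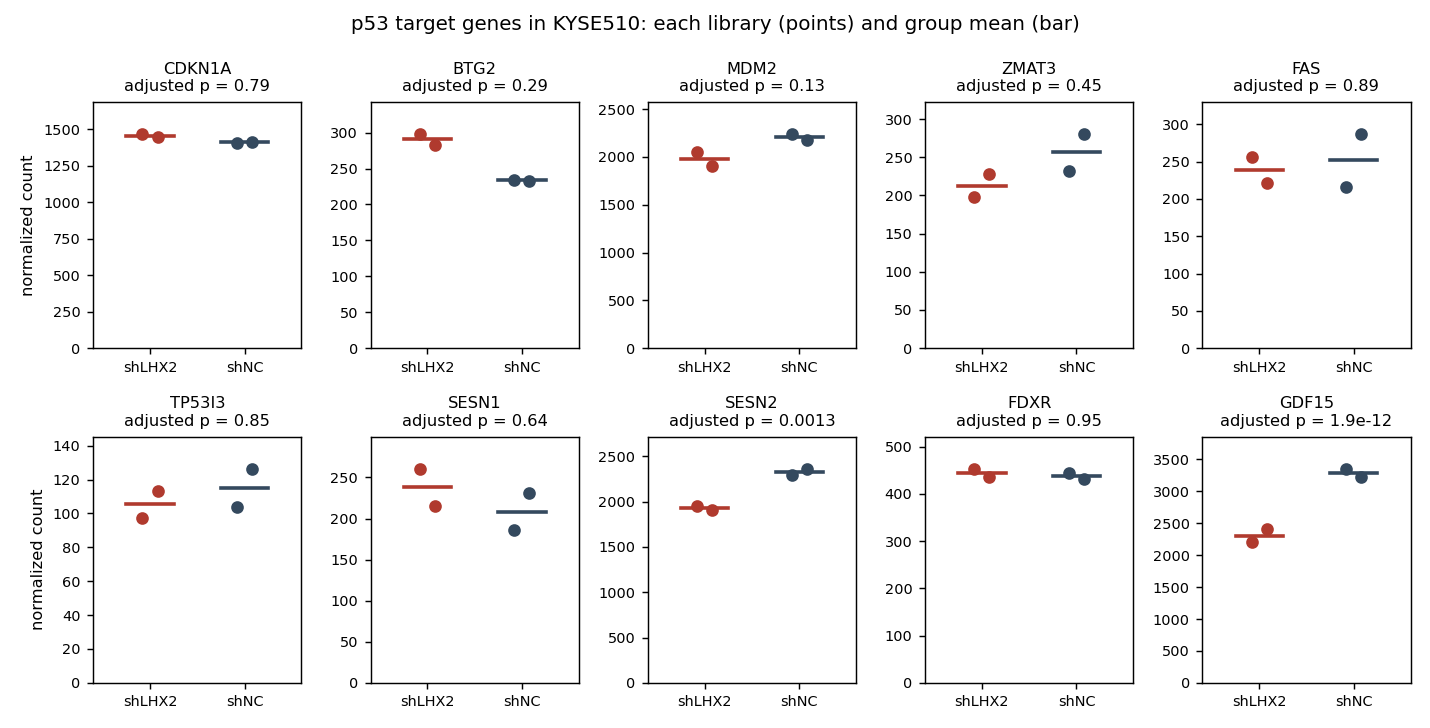
Normalized counts (vertical axes, from 0) of the 10 p53 target genes in KYSE510, with each library as a point, the group mean as a bar, shLHX2 on the left and shNC on the right of each panel. GDF15 and SESN2 are the members past the threshold, GDF15 at 2211 and 2403 with shLHX2 and at 3353 and 3221 with shNC.

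The sestrins SESN1 and SESN2 restrain the growth kinase complex mTORC1, and SESN2 is known as a leucine sensor. SESN2 (ENSG00000130766, chr1:28259527-28282491) had 348 and 352 normalized counts in KYSE30 shLHX2, against 533 and 532 in shNC. The libraries of each group were nearly equal, and SESN2 fell to 65.7% of shNC (log2 fold change -0.61, standard error 0.11, adjusted p = 8.1e-07). In KYSE510 it had 1947 and 1904 in shLHX2, against 2296 and 2364 in shNC. It fell there to 82.7% of shNC, with a log2 fold change of -0.27, a standard error of 0.07 and an adjusted p of 0.0013.

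SESN1 (ENSG00000080546, chr6:108986437-109094819) did not pass in either line. It had 336 and 288 normalized counts in KYSE30 shLHX2 and 365 and 348 in shNC, with a log2 fold change of -0.19 (95% interval -0.46 to 0.08, adjusted p = 0.34). The KYSE510 libraries had 261 and 215 in shLHX2 and 186 and 231 in shNC, which overlap, with a log2 fold change of 0.20 (95% interval -0.24 to 0.63, adjusted p = 0.64). The paralog SESN3, a known target of FOXO factors, fell in KYSE30, with 593 and 621 normalized counts in shLHX2 against 801 and 770 in shNC (adjusted p = 0.00030). It rose in KYSE510, with 700 and 709 in shLHX2 against 474 and 455 in shNC (adjusted p = 7.4e-05). The 3 sestrin genes therefore did not move alike: SESN2 fell in both lines, SESN3 changed in opposite directions, and SESN1 passed in neither.

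FDXR (ENSG00000161513, chr17:74862497-74873031) encodes the mitochondrial reductase that passes electrons to ferredoxin for steroid and iron-sulfur cluster synthesis. It had 614 and 579 normalized counts in KYSE30 shLHX2, against 708 and 702 in shNC. It fell to 84.7% of shNC (log2 fold change -0.24, standard error 0.09, adjusted p = 0.037). This call is close to the threshold: adjusted over every gene with a p it was 0.061, and limma without the shallower shLHX2 library gave 0.10. In KYSE510, FDXR had 453 and 435 in shLHX2 and 444 and 431 in shNC, with overlap and a log2 fold change of 0.02 (95% interval -0.27 to 0.31, adjusted p = 0.95).

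GDF15 (ENSG00000130513, chr19:18374731-18389176), a secreted ligand of the TGF-beta superfamily that signals through GFRAL in the brainstem, had the smallest adjusted p of the members in both lines. It had 697 and 692 normalized counts in KYSE30 shLHX2, against 1028 and 1151 in shNC. The shLHX2 libraries lie far below the shNC libraries, at 63.8% of their level (log2 fold change -0.65, standard error 0.09, adjusted p = 4.1e-12). In KYSE510 it had 2211 and 2403 in shLHX2, against 3353 and 3221 in shNC. GDF15 fell there to 70.1% of shNC, with a log2 fold change of -0.51, a standard error of 0.07 and an adjusted p of 1.9e-12.

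**Figure D3:**
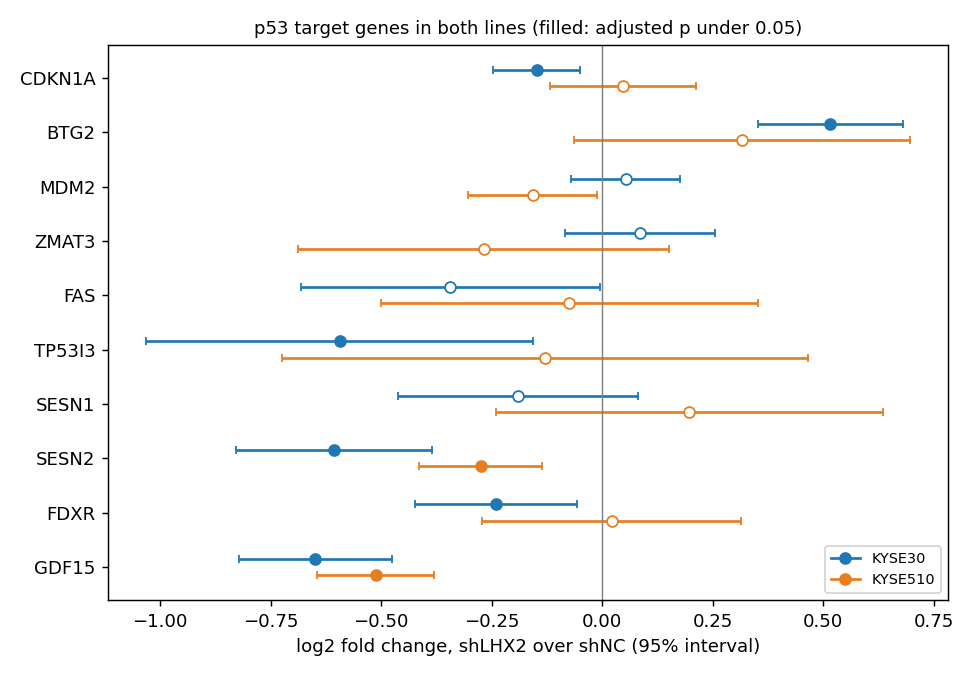
Log2 fold change of shLHX2 over shNC (horizontal axis) with its 95% interval for each p53 target gene, KYSE30 above KYSE510, with filled points at an adjusted p under 0.05. GDF15 and SESN2 are left of 0 in both lines (-0.65 and -0.61 in KYSE30, -0.51 and -0.27 in KYSE510), and BTG2 is the only filled point to the right (0.52 in KYSE30).

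The difference between the lines was tested for each member as the KYSE30 minus the KYSE510 log2 fold change over its standard error, adjusted over the 12311 genes tested in both, of which 11.9% passed. None of the 10 members passed by this z test, while 3 had an unadjusted p under 0.05 and a limma interaction on the reads called 3, CDKN1A, MDM2 and SESN2. For SESN2 the difference was -0.33 with a 95% interval of -0.59 to -0.07 and an adjusted p of 0.087 in the z test and 0.0058 in limma. For MDM2 it was 0.21 (interval 0.02 to 0.40), with 0.16 in the z test and 0.036 in limma, and for CDKN1A it was -0.19 (interval -0.39 to -0.00), with 0.21 and 0.031. The larger number of members called in KYSE30 is therefore not shown by the z test to be a difference in response for any of them. The widest interval was that of TP53I3, from -1.20 to 0.27, and the difference for GDF15 was -0.14 (interval -0.35 to 0.08).

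Levels between members were compared per kilobase of annotated exon. In KYSE30 CDKN1A was highest, with 800.0 normalized counts per kilobase, followed by GDF15 with 427, BTG2 with 301, FDXR with 181, SESN2 with 128, MDM2 with 124, ZMAT3 with 94.0, SESN1 with 65.3, TP53I3 with 57.2 and FAS with 49.3. Between neighbors in this order, the ranges over the 4 libraries overlapped for GDF15 and BTG2, for SESN2 and MDM2, for SESN1 and TP53I3, and for TP53I3 and FAS. In KYSE510, whose table was normalized separately, GDF15 was highest with 1340 per kilobase, then SESN2 with 616, CDKN1A with 470 and MDM2 with 158, followed by FDXR with 123, BTG2 with 95.03, FAS with 57.7, TP53I3 with 47.7, SESN1 with 43.6 and ZMAT3 with 24.3. There the ranges of neighbors overlapped for FAS and TP53I3 and for TP53I3 and SESN1. The members lower in both lines, GDF15 and SESN2, ranked above CDKN1A in KYSE510 and below it in KYSE30.

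TP63, which encodes p63, fell in both lines, with 1663 and 1628 normalized counts in KYSE30 shLHX2, against 3049 and 3056 in shNC (log2 fold change -0.89, adjusted p = 1.2e-66). In KYSE510, TP63 had 6546 and 6491 in shLHX2, against 8883 and 8805 in shNC (log2 fold change -0.44, adjusted p = 2.0e-24). TP73, the other relative, did not pass, with log2 fold changes of -0.09 in KYSE30 and 0.42 in KYSE510.

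MDM4, the partner of MDM2 that blocks p53 activity, rose in KYSE30, with 1250 and 1284 normalized counts in shLHX2 against 931 and 794 in shNC (log2 fold change 0.55, adjusted p = 5.9e-09). In KYSE510 it had 937 and 987 in shLHX2 and 874 and 1020 in shNC (log2 fold change 0.02, adjusted p = 0.94). Of the 15 listed p53 family and regulator genes, 6 rose and 4 fell in KYSE30, and of the 14 tested in KYSE510, 1 rose and 4 fell. Among all genes tested, 13.9% rose and 15.7% fell in KYSE30, and 7.89% rose and 10.8% fell in KYSE510. The acetyltransferases CREBBP (log2 fold change -0.32 in KYSE30 and -0.47 in KYSE510) and EP300 (-0.22 and -0.29), which acetylate p53, and the p53 kinase HIPK2 (-0.31 and -0.72) fell in both lines. The checkpoint kinase CHEK1 rose in both (0.28 and 0.50). ATM (0.22), ATR (0.24), the MDM2 deubiquitinase USP7 (0.24) and CDKN2A (0.46), whose ARF product inhibits MDM2, rose in KYSE30, and CDKN2A had no row in the KYSE510 table. The part of these regulators in the members' values was not tested.

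Of 37 other p53 targets on the lists, 35 were tested in KYSE30, where 9 fell and 6 rose, and 34 in KYSE510, where 8 fell and 3 rose. Their median log2 fold change was -0.08 in KYSE30 and 0.02 in KYSE510. Over all genes tested, 15.7% fell and 13.9% rose in KYSE30, and 10.8% fell and 7.89% rose in KYSE510. The counts of each list below stand beside the same shares. All lists were chosen with earlier results of these data known, so this comparison is not a test. The median log2 fold change of 14 reference genes was 0.14 in KYSE30 and 0.09 in KYSE510. Of these genes, 7 rose and 2 fell in KYSE30, and 5 rose and 1 fell in KYSE510, so they were not a fixed baseline. After centring on their median, the split of the other targets was 16 lower and 3 higher in KYSE30 and 8 lower and 1 higher in KYSE510. The other targets were called in both directions in each line, and the balance of directions depended on the centring.

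Among the cell cycle and feedback targets, PLK2, a kinase of the centriole cycle, rose in both lines (log2 fold change 0.66 in KYSE30 and 0.38 in KYSE510). SFN, the epithelial 14-3-3 sigma protein that holds cells before mitosis, fell in both (-0.14 and -0.38), and so did GADD45A (-0.48 and -0.40), a stress gene outside the naming rule that was picked after its values were seen. SUSD6 fell in KYSE30 (-0.40), PHLDA3, an inhibitor of AKT, fell in KYSE510 (-0.48), and the kinase PLK3 rose in KYSE30 (0.36). Of the 9 genes of this list, 3 fell in each line, while 2 rose in KYSE30 and 1 in KYSE510.

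Of the apoptosis targets, 5 of 14 tested fell and 1 rose in KYSE30, and 2 of 12 fell and 10 did not pass in KYSE510. BBC3, the BH3-only protein PUMA, had 307 and 285 normalized counts in KYSE30 shLHX2, against 524 and 514 in shNC (log2 fold change -0.81, adjusted p = 3.0e-10), and a log2 fold change of -0.28 in KYSE510 that did not pass (adjusted p = 0.50). TP53INP1, which supports p53 phosphorylation and autophagy, fell in KYSE30 (-0.74) and had -0.08 in KYSE510. PERP, a desmosomal protein that is a target of both p53 and p63, fell in both lines (-0.23 and -0.36), as did TNFRSF10B, a receptor for the death ligand TRAIL (-0.29 and -0.32). The nuclease gene AEN rose in KYSE30 (0.46).

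Of the 6 DNA repair targets tested, 3 rose and 3 did not pass in KYSE30, and 1 rose and 1 fell in KYSE510. DDB2, the damage sensor of nucleotide excision repair, had 1026 and 1053 normalized counts in KYSE30 shLHX2, against 833 and 848 in shNC (log2 fold change 0.31, adjusted p = 0.00049), and it rose by 0.44 in KYSE510 (adjusted p = 0.014). The translesion polymerase gene POLH rose in KYSE30 (0.73) and had 0.41 in KYSE510 (adjusted p = 0.20). FBXO22 rose in KYSE30 (0.27), and ASCC3, a helicase subunit for alkylation repair, fell in KYSE510 (-0.23).

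Of the metabolism and autophagy targets, 1 of 6 tested fell in KYSE30 and 5 did not pass, and 2 of 7 fell and 1 rose in KYSE510. SAT1, the acetyltransferase that drives polyamine breakdown, had 702 and 762 normalized counts in KYSE30 shLHX2, against 1726 and 1840 in shNC (log2 fold change -1.29, adjusted p = 1.4e-61). It had 2458 and 2600 in KYSE510 shLHX2, against 3718 and 3570 in shNC (log2 fold change -0.53, adjusted p = 3.5e-15). DRAM1, an autophagy modulator of the lysosome, fell in KYSE510 (-0.45), where STEAP3, an iron reductase, rose (0.28), and PRKAB1 passed in neither line. The paralogs BTG1, BTG3 and CDKN1B of the members passed in neither line.

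**Figure D4:**
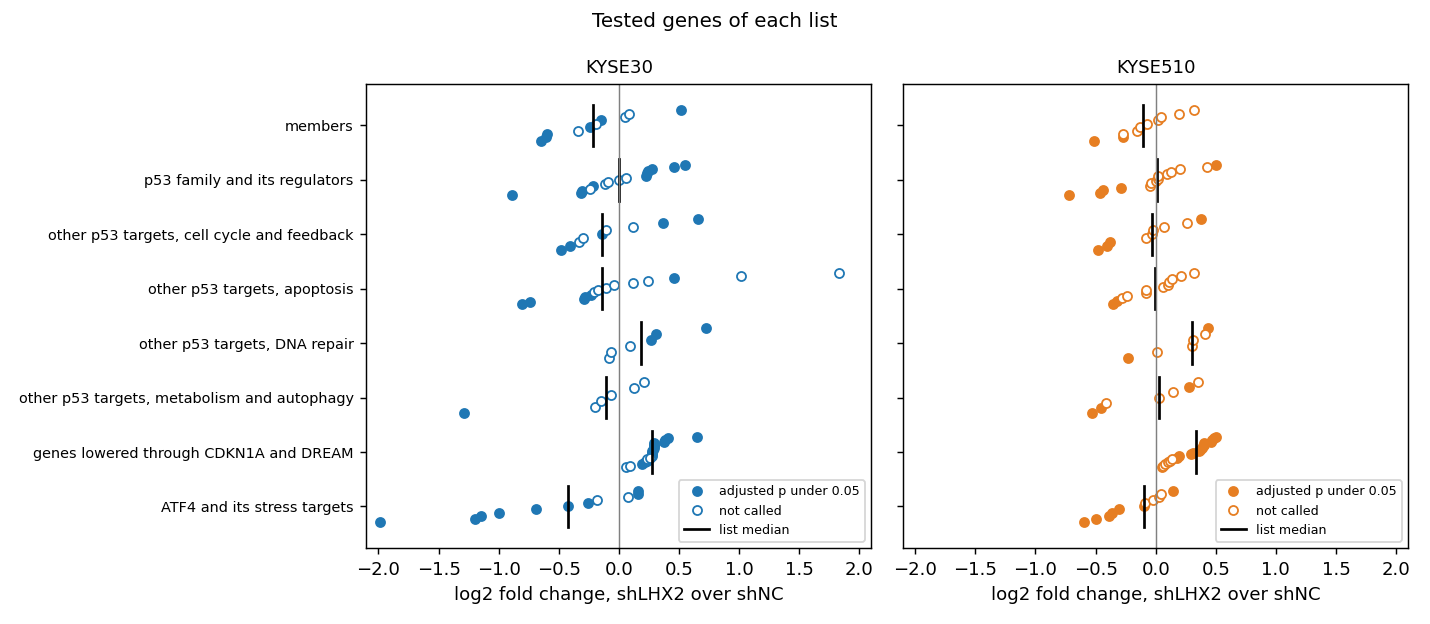
Log2 fold change of shLHX2 over shNC (horizontal axis) of each tested gene of the members and of 7 other lists, KYSE30 in the left panel and KYSE510 in the right panel, with filled points at an adjusted p under 0.05 and a vertical bar at each list's median. The members' medians are -0.22 and -0.10, and the medians of the genes lowered through CDKN1A and DREAM are 0.28 and 0.33, before any centring on reference genes.

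A further list held genes that p53 lowers through CDKN1A and the DREAM repressor complex, mostly drivers of mitosis. It includes CHEK1, which rose in both lines and is also counted among the p53 regulators above. Of 20 listed, 16 rose and 4 did not pass in KYSE30, where 13.9% of all genes tested rose, and 14 rose and 6 did not pass in KYSE510, where 7.89% of all genes tested rose, with median log2 fold changes of 0.28 and 0.33. The transcription factor gene MYBL2 rose by 0.29 in KYSE30 and 0.47 in KYSE510, the cyclin gene CCNB1 by 0.29 and 0.19, the survivin gene BIRC5 by 0.38 and 0.40, and the anaphase activator gene CDC20 by 0.28 and 0.40. As the list was chosen with earlier results of these data known, its counts beside these shares are a description only. These counts and values are before centring on the reference genes, whose median log2 fold change was 0.14 in KYSE30 and 0.09 in KYSE510. CDKN1A, whose protein acts on this complex, fell by 0.15 in KYSE30 and did not pass in KYSE510. A relation between CDKN1A and these genes was not tested.

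GDF15 and SESN2 are also known targets of ATF4, the transcription factor of the integrated stress response. Of 11 listed genes, ATF4 and its stress targets, 7 fell, 2 rose and 2 did not pass in KYSE30, with a median log2 fold change of -0.43, and 6 fell, 1 rose and 4 did not pass in KYSE510, with a median of -0.10. Among all genes tested, 15.7% fell and 13.9% rose in KYSE30, and 10.8% fell and 7.89% rose in KYSE510. ATF3 had 168 and 201 normalized counts in KYSE30 shLHX2, against 392 and 422 in shNC (log2 fold change -1.14, adjusted p = 1.4e-12), and it fell by 0.31 in KYSE510 (adjusted p = 0.0080). The pseudokinase gene TRIB3 fell in both lines (-0.25 and -0.49), the cystine transporter gene SLC7A11 fell in KYSE510 (-0.36), and PHGDH, an enzyme of serine synthesis, fell in KYSE30 (-0.69) and rose in KYSE510 (0.14). The ATF4 transcript rose in KYSE30 (0.16) and did not pass in KYSE510 (0.05), and the mTORC1 inhibitor gene DDIT4 rose in KYSE30 (0.16) and fell in KYSE510 (-0.10). These values are before centring on the reference genes, whose median log2 fold change in KYSE30, 0.14, is close to the rises of ATF4 and DDIT4 there. In KYSE510 that median was 0.09, beside the PHGDH rise of 0.14. This list too was chosen with earlier results of these data known, so its counts are a description only. The part of the ATF4 genes in the fall of GDF15 and SESN2 was not tested.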

How the data were processed

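The authors processed reads against hg38 and made 1 results table per line, with DESeq2 in its name, while the labels name DESeq with no version. Aligner, read counter and use of strand: not given in the sources used here. Per the file headers, the mean column is a signal: counts over size factors, averaged across the 4 libraries of a line. The fold change (shLHX2 over shNC) and its error were deposited as log2 values. The Wald column that the authors deposited is a score. The p-value columns that the authors deposited are two-sided p-values and Benjamini-Hochberg adjusted ones for genes above a mean level, and all columns were checked against each other. These columns hold the authors' own comparison. As no column holds a single library, their test was read as it stands and called at an adjusted p under 0.05.

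Whole reads per library were worked back, with genes of 1 read in 1 library giving the size factors and the fold change selecting the whole-number solution, for 98.0% of genes tested in KYSE30, 97.2% in KYSE510 and all 10 members in both. The recovery was tested on simulated data. The replicate number of each such library is not known. In place of the planned library totals, the authors' size factors scaled the libraries, which went into limma 3.58.1 (R 4.3.3) as log2 of the normalized count plus 0.5. The difference between the lines was a two-sided z test with Benjamini-Hochberg. Alternatives were a fold limit of 1.5, an adjusted p under 0.01, no filter or a mean of at least 100, centring on all or on 14 reference genes, limma, and leaving out each library. The gene positions are those of GENCODE release 29. The members and lists were chosen with earlier results of these data known. Named genes are the members, LHX2, TP63, TP73 and MDM4, and from every other list those called against its median and up to 4 by lowest adjusted p across the lines. Some single genes that this rule or the lists hold are not reported here.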

Additional observations from a re-analysis of the deposited data

Results flagged for a closer look

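None of the members differed between the lines by the z test. Of 43 other named genes tested in both lines, 15 did, beside 11.9% of all 12311 genes tested in both. Many of the 43 were named for a small adjusted p in these same data. Their count therefore cannot be compared with that of the members. The KYSE30 minus KYSE510 difference of log2 fold changes was negative for SESN3 (-0.97), ATF3 (-0.84), PHGDH (-0.83), SAT1 (-0.76), TP63 (-0.45) and SUSD6 (-0.38). It was positive for MDM4 (0.53), SLC7A11 (0.44), HIPK2 (0.41), PHLDA3 (0.37), PLK2 (0.28), DDIT4 (0.26), SFN (0.24), TRIB3 (0.24) and USP7 (0.24). Adjusted p-values of this test over all genes were between 1.2e-29 for PHGDH and 0.043 for HIPK2.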

How the results depend on the processing

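With a 1.5-fold limit the members called fell to 3 in KYSE30 and 0 in KYSE510, and the other p53 targets called to 5 and 0. An adjusted p under 0.01 left 3 members in KYSE30. In KYSE510 limma called 4 members. The line difference called 1 member, SESN2, after centring on reference genes and 3 by limma. Leaving out each library in turn in limma gave 5 to 6 members in KYSE30 and 2 to 4 in KYSE510, where 4 came without the deeper shNC library, and 15 to 17 and 12 to 16 other p53 targets. The cause of these changes was not tested, beside the fewer genes that a stricter limit passes by construction. Of the 14 reference genes, 9 were themselves called in KYSE30 and 6 in KYSE510. Centring on them turned the log2 fold change of MDM2 (-0.084) and ZMAT3 (-0.052) in KYSE30 and of CDKN1A (-0.047) and FDXR (-0.072) in KYSE510. Leaving out a library moved 3 members across 0 in KYSE510: FAS between -0.27 and 0.14, TP53I3 between -0.27 and 0.016 and FDXR between -0.0087 and 0.050. None of these had passed. No called member changed its direction under any of these alternatives. No paired analysis was possible because the replicate numbers of the libraries worked back are not known. With 2 libraries a group, intervals were wide for members with few reads, such as TP53I3 in both lines, and small changes of these would not be detected.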
